A study of Saccharomyces cerevisiae with 6 samples.

Results

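The 49 genes described here build, cross-link and coat the cell wall of *Saccharomyces cerevisiae*. They were listed by function and not by a threshold on their change, and fall into 2 genes of beta-1,3-glucan synthesis, 6 of beta-1,6-glucan synthesis, 7 of chitin synthesis, 17 of glucan remodelling, 14 of wall structural proteins and 3 of yapsin proteases. All 49 were measured, out of 5656 genes with a probe set of their own on the array, and none was left out for a low signal. A gene with several probe sets was read from its brightest one, by the mean log2 signal over the 6 arrays.

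The yeast cell wall is a network of beta-1,3-glucan strands to which beta-1,6-glucan, chitin and mannoproteins are attached. Glucan and chitin are made by synthases in the plasma membrane, and enzymes outside the membrane then cut, lengthen and cross-link the chains as the bud grows. Mannoproteins are bound either through a remnant of a glycosylphosphatidylinositol (GPI) anchor or, in the PIR family, directly to beta-1,3-glucan. When the wall is weakened, the cell wall integrity pathway, a kinase cascade that runs from Pkc1p to the kinase Slt2p and the transcription factor Rlm1p, turns on a known set of wall genes.

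RNA was taken from 3 independent cultures given 70 μM pterostilbene, an antifungal stilbene of the grapevine family, and from 3 independent control cultures given 0.25% dimethyl sulfoxide (DMSO), and each was hybridized to 1 Affymetrix GeneChip Yeast Genome S98 array. Both groups were S288C, a standard haploid strain of the alpha mating type that carries SUC2 and CUP1 together with mal, mel, gal2, flo1 and flo8-1, grown in buffered synthetic dextrose medium. Compound or solvent was added at an A600 of 0.2 and cells were harvested at an A600 of 0.5. The dose was chosen to slow growth, so the effect of the compound cannot be told apart from that of growth rate or of time in culture, and by the study's methods the compound came from a concentrated DMSO stock, which brought far less solvent than the controls received. Compound and solvent content therefore cannot be told apart, unless solvent was added to match.

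The 2% trimmed mean of the deposited signals was between 500.4 and 500.5 on all 6 arrays, while the median signal was between 161.6 and 170.2 in pterostilbene-treated cultures and between 119.1 and 123.4 in control cultures. Log2 signals of arrays correlated at 0.967 to 0.975 within the treated group, at 0.965 to 0.969 within the controls and at 0.914 to 0.924 between the groups, across probe sets. As deposited, the median gene had a log2 fold change (pterostilbene over control) of 0.22. It moved to -0.13 after quantile normalization, which gives all arrays the same distribution, to -0.23 after the median of each array was set equal, and to 0.33 after centring on 4 reference genes. Poly-A control transcripts, which are added to RNA before labelling, were 5.11-fold higher in treated cultures over 12 probe sets, and hybridization controls 1.06-fold over 9, and the part of this in the results was not tested. Directions below are those of the deposited scaling, and a scaling that turned one is named beside it. The value after ± is an SE over 3 arrays each. For a fold change it is the moderated SE of the limma fit, which draws on the spread of all tested probe sets. For a change in ratio it is the pooled SE of that ratio alone, so the SEs of fold changes and of ratios are not directly comparable. The alpha-specific genes that mark this mating type had signals of 1579.7 to 12613 in the controls, against 8.1 to 261 for the a-specific genes. All 4 alpha-specific genes fell with pterostilbene, among them SAG1, which encodes the alpha-agglutinin of the wall, with a log2 fold change of -4.22 ± 0.16 (adjusted p = 1e-04). Of the 6 a-specific genes, 3 were higher, 1 lower and 2 did not pass. Quantile normalization and median centring each gave 2 higher and 2 lower. Among all genes as deposited, 35.8% were higher and 18.4% lower. Quantile normalization made that 21.6% and 30.4%, and median centring made it 19.3% and 39%.

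Wall genes moved in both directions. Of the 49 members, 14 were higher and 19 lower in treated cultures at an adjusted p under 0.05, and 16 did not pass. That is 28.6% higher and 38.8% lower, where 35.8% of all genes were higher and 18.4% lower. At 2-fold or more, 9 members were higher and 12 lower, where 17% of all genes were higher and 3.98% lower. The median log2 fold change of the members was -0.14, against 0.22 over all genes, and single members ranged from -2.03 (UTR2) to 2.84 (NCA3). The signals of the treated arrays lay wholly above those of the controls for 20 members and wholly below for 22, and overlapped for 7, where 44.2% of all genes lay wholly above and 24.5% wholly below. After quantile normalization 12 members were higher and 19 lower, where 21.6% of all genes were higher and 30.4% lower. Median centring gave 8 higher and 28 lower, where 19.3% of all genes were higher and 39% lower, and reference gene centring gave 20 higher and 17 lower, where 41.6% of all genes were higher and 14.9% lower. In these whole cultures, a lower signal because fewer cells carried a transcript cannot be told apart from less transcript in each cell.

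**Figure D1:**
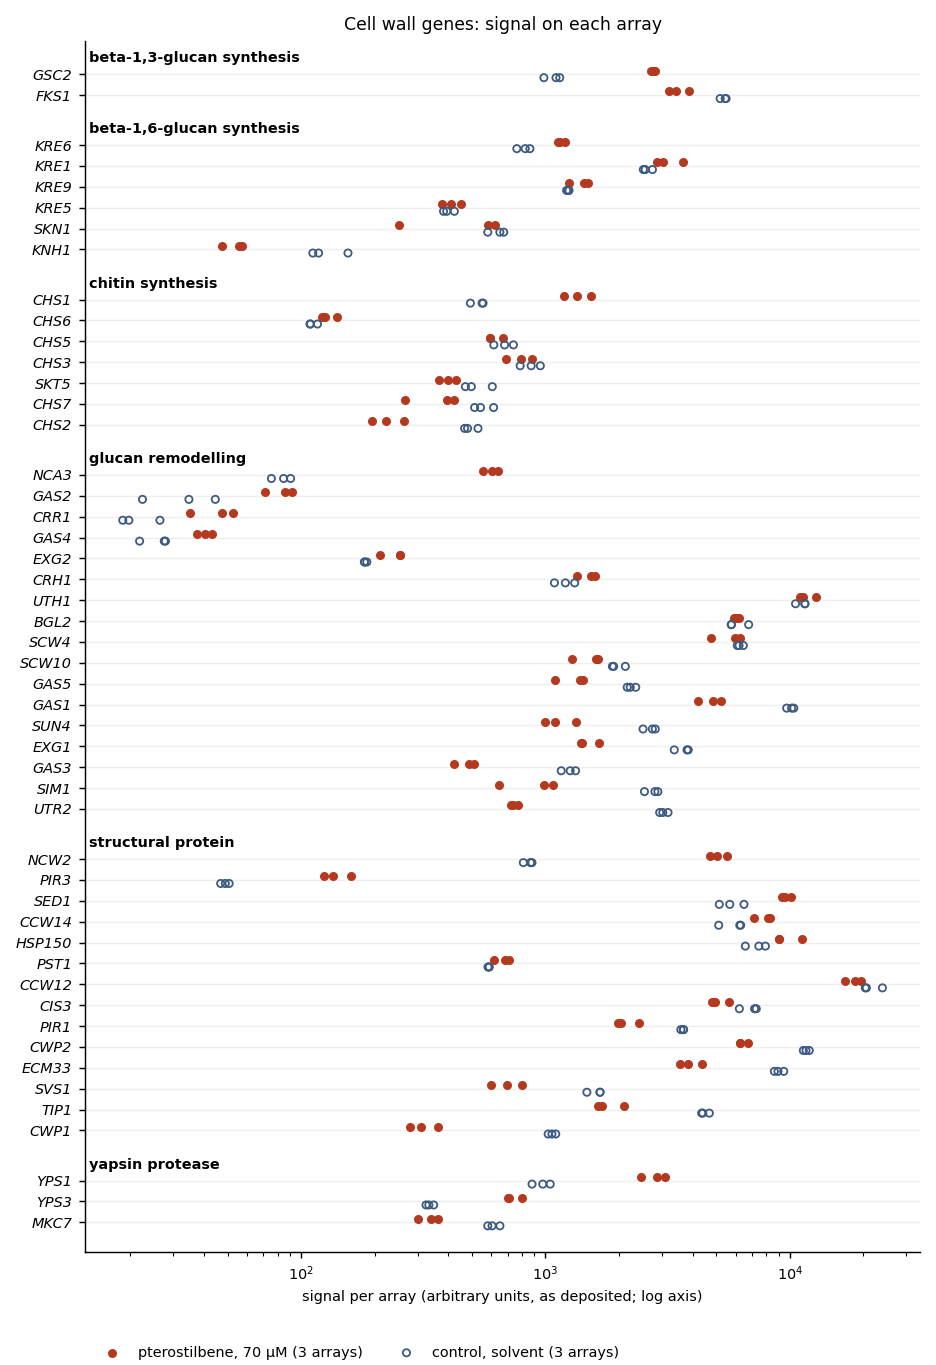
Signal of each of the 49 cell wall genes on each array, in arbitrary units as deposited, on a log axis. Filled points are the 3 pterostilbene-treated cultures and open points, drawn just below them, the 3 control cultures, with genes grouped by role and ordered by their change. The treated points of GSC2, CHS1, NCA3, NCW2 and YPS1 stand clear to the right of the control points, and those of UTR2, SIM1, CWP1, TIP1 and CHS2 clear to the left.

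The 2 catalytic subunits of beta-1,3-glucan synthase changed in opposite directions. FKS1 encodes the subunit that dominates in growing cells, and GSC2 (also called FKS2) the one that is known to be turned on under stress by calcineurin and the cell wall integrity pathway. GSC2 signals were 2819, 2754 and 2691 in pterostilbene-treated cultures, against 1144, 1104 and 985 in control cultures. All treated arrays were above all controls, and GSC2 was 2.56-fold higher, a log2 fold change of 1.36 ± 0.10 (adjusted p = 4e-04). FKS1 gave 3191, 3415 and 3861 in treated cultures and 5189.9, 5444 and 5488 in controls. Here all treated arrays were below all controls, and FKS1 was 1.54-fold lower, at -0.63 ± 0.11 (adjusted p = 0.0061) on the log2 scale. The log2 ratio of FKS1 to GSC2 within an array changed by -1.98 ± 0.13, a 3.96-fold shift toward GSC2. In an exact two-sided permutation test of this ratio over the arrays p was 0.1, the smallest that 3 arrays against 3 allow, so that no pair of genes described here could pass 0.05 by that test.

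These 2 genes carry several probe sets, which were read on the same arrays and so are no independent replicates. Whether they share probes was not examined. All 8 probe sets of FKS1 were lower in treated cultures, with log2 fold changes of -1.31 to -0.52, and 7 of them passed the threshold. All 7 probe sets of GSC2 were higher and passed, at 1.29 to 1.61. Only 3 other members had more than 1 probe set. Both probe sets of ECM33 fell, at -1.79 and -1.20. The 6 probe sets of KRE5 went both ways, from -0.35 to 0.53, and 1 passed, as higher. SCW10 had 2 probe sets that disagreed: the brighter stood at -0.39 ± 0.14 (adjusted p = 0.062), with signals of 1280.1, 1647 and 1604 in treated cultures and 1902, 1879 and 2123 in controls, while the dimmer, with signals of 161, 223 and 209 in treated cultures and 70.1, 91.6 and 116 in controls, was higher at 1.11 ± 0.23 (SE, adjusted p = 0.011). The direction of SCW10 therefore depends on the probe set chosen.

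**Figure D2:**
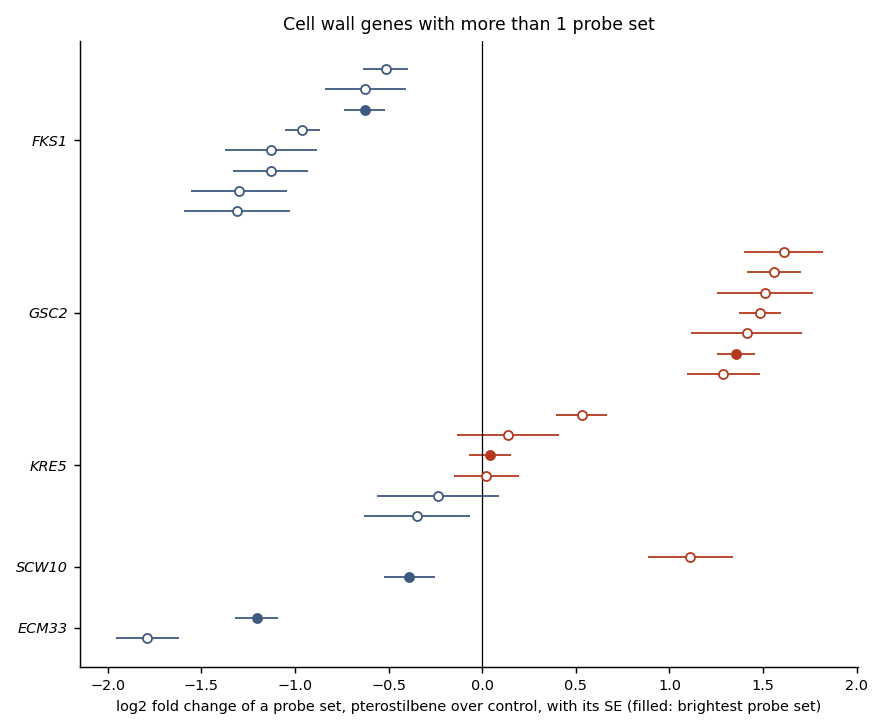
Log2 fold change, pterostilbene over control, of every probe set of the 5 cell wall genes with more than 1 probe set, with its SE as a bar and the brightest probe set filled. The 8 FKS1 and 2 ECM33 probe sets lie left of 0 and the 7 GSC2 probe sets right of it, while those of KRE5 and SCW10 fall on both sides.

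Of the 6 genes of beta-1,6-glucan synthesis, 1 was higher (16.7%), 1 lower (16.7%) and 4 did not pass, where 35.8% of all genes were higher and 18.4% lower. Reference gene centring gave 3 higher and 1 lower, where 41.6% of all genes were higher and 14.9% lower. The median log2 fold change of the role was 0.11 (-0.046 after quantile normalization). KRE6 encodes a membrane protein of the secretory pathway that is required for most beta-1,6-glucan. Its signals were 1142, 1122 and 1199.9 in treated cultures and 763, 826 and 863 in controls, without overlap, and its log2 fold change was 0.50 ± 0.097 (adjusted p = 0.009). After median centring KRE6 did not pass, at 0.047 (adjusted p = 0.72). SKN1, its homologue, gave 581, 619 and 251 in treated cultures, against 650.5, 580.5 and 675 in controls. Replicate C of the treated group was well under the other treated arrays, which lay at the level of the controls, and SKN1 did not pass, at -0.50 ± 0.37 (adjusted p = 0.31). The ratio of KRE6 to SKN1 changed by 0.997 ± 0.46 on the log2 scale, and by 0.55 without treated replicate C.

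KNH1, a homologue of KRE9 that can stand in for it, was the only gene of this role that fell. Its dim signals were 55.4, 47.4 and 57 in treated cultures and 155, 112 and 118 in controls. The groups did not overlap, and the log2 fold change was -1.26 ± 0.17 (adjusted p = 0.0023). KRE9 itself, a secreted glycoprotein needed for beta-1,6-glucan, gave 1252, 1436 and 1493 in treated cultures and 1221, 1240.2 and 1248 in controls, at 0.17 ± 0.11 (adjusted p = 0.24). Every treated array was above every control, by a margin too small to pass, and the direction turned to -0.28 (adjusted p = 0.053) with median centring. KRE1, a GPI-anchored wall protein that serves as a receptor of the K1 killer toxin, stood at 0.28 (adjusted p = 0.12, and -0.17 with median centring), and KRE5, a glucosyltransferase-like protein of the endoplasmic reticulum, at 0.043 (adjusted p = 0.78), which turned to -0.26 after quantile normalization and to -0.41 (adjusted p = 0.018) after median centring.

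Among the 7 genes of chitin synthesis 1 was higher (14.3%), 2 were lower (28.6%) and 4 did not pass, with a median of -0.14. Beside them, 35.8% of all genes were higher and 18.4% lower. Quantile normalization gave 1 higher and 3 lower, where 21.6% of all genes were higher and 30.4% lower. Median centring gave 1 higher and 5 lower (all genes 19.3% and 39%), and reference gene centring 2 higher and 1 lower (41.6% and 14.9%). Of the 3 chitin synthase genes, CHS1 rose, CHS2 fell and CHS3 did not pass. CHS1 encodes the synthase that repairs the wall of the daughter cell after separation. Its signals were 1187, 1340.1 and 1533 in treated cultures, against 550.2, 555 and 493 in controls. Every treated array was far above the controls, a 2.53-fold difference with a log2 fold change of 1.34 ± 0.13 (adjusted p = 0.00091). CHS2, which encodes the synthase of the primary septum and is transcribed in mitosis, gave 195, 223 and 264 in treated cultures and 479.7, 467 and 529 in controls. The groups did not overlap, and CHS2 was 2.18-fold lower, at -1.12 ± 0.14 (adjusted p = 0.0021) on the log2 scale. The ratio of CHS1 to CHS2 rose on all treated arrays, by 2.46 ± 0.11 on the log2 scale or 5.51-fold, with an exact permutation p of 0.1 over 3 arrays each.

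CHS3, which makes the bulk of the chitin in the bud neck ring and the lateral wall, had signals of 692, 795 and 882 in treated cultures and 953, 874 and 788 in controls. The groups overlapped, and the log2 fold change was -0.14 ± 0.14 (adjusted p = 0.42), or -0.60 (adjusted p = 0.009) with median centring. Of the genes that carry or activate Chs3p, only CHS7, a chaperone for its exit from the endoplasmic reticulum, passed as lower. CHS7 signals were 395, 424 and 267 in treated cultures, against 542, 513 and 613 in controls, with a log2 fold change of -0.64 ± 0.20 (adjusted p = 0.046). Replicate C of the treated group was the lowest, as it was for SKN1, and without that array CHS7 stood at -0.44 (adjusted p = 0.04). The call of CHS7 was lost when treated replicate A or any 1 of the control arrays was left out (adjusted p = 0.073 to 0.12), and with reference gene centring (adjusted p = 0.095). SKT5, which encodes the activator of Chs3p, stood at -0.39 (adjusted p = 0.063), without overlap, and passed after quantile normalization at -0.67 (adjusted p = 0.009). The exomer genes, for transport of Chs3p to the cell surface, stood at -0.13 for CHS5 (adjusted p = 0.4) and 0.21 for CHS6 (adjusted p = 0.15), and CHS6 turned to -0.27 with quantile normalization and -0.25 with median centring.

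CHS2 fell together with other cell cycle genes. Of 9 measured mitotic genes of the CLB2 cluster, 7 were lower (77.8%), 0 were higher and 2 did not pass, where 18.4% of all genes were lower and 35.8% higher. The median log2 fold change of these 9 was -0.85. CLB1, a B-type cyclin, gave 48, 59.9 and 22.8 in treated cultures and 233, 246 and 289 in controls, and the fold change on the log2 scale was -2.66 ± 0.37 (adjusted p = 0.0029). Of 10 G1 genes of the Start circuit, 9 were lower (90%), 0 were higher and 1 did not pass, beside the same shares of all genes. Their median was -1.17, with the G1 cyclin CLN1 at -1.49 ± 0.11 (adjusted p = 0.00037). The share of cells in each phase was not measured, and the part of these genes in the fall of CHS2 was not tested.

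Of 17 genes of glucan remodelling, 5 were higher, 7 lower and 5 did not pass, with a median of -0.15. That is 29.4% higher and 41.2% lower, where 35.8% of all genes were higher and 18.4% lower. The lower genes included GAS1 and EXG1, major enzymes of growing cells, and the bud neck enzyme UTR2, which had the deepest fall among all members. The SUN family gene NCA3, named for a role in expression of mitochondrial ATP synthase subunits, had the largest rise. After quantile normalization NCA3 was the only 1 of the 5 higher members that kept its call, UTH1 was called higher in addition, and 7 were lower. In that scaling 21.6% of all genes were higher and 30.4% lower.

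NCA3 signals were 553, 607 and 637 in treated cultures, against 84.7, 90.5 and 75.5 in controls. The groups were far apart, with a 7.18-fold difference and a log2 fold change of 2.84 ± 0.12 (adjusted p = 0.00011). UTH1, the closest relative of NCA3, gave 11383, 11035 and 12832 in treated cultures and 11519, 11555 and 10561 in controls. These ranges overlapped, and UTH1 stood at 0.066 ± 0.11 (adjusted p = 0.64). It was called higher after quantile normalization, at 0.35 (adjusted p = 0.033), and lower after median centring, at -0.39 (adjusted p = 0.019), so that no direction can be given for it. The other 2 SUN family members fell. SIM1 gave 985, 1078 and 646 in treated cultures, against 2885, 2806 and 2542 in controls, and SUN4, which acts in septation, gave 992, 1095 and 1335 in treated cultures, against 2815, 2739.6 and 2508 in controls. Neither gene's groups overlapped, although replicate C was the lowest treated array for SIM1 and the highest for SUN4. The log2 fold changes were -1.64 ± 0.21 (adjusted p = 0.0023) for SIM1 and -1.25 ± 0.14 (adjusted p = 0.0015) for SUN4. The ratio of UTH1 to NCA3 changed by -2.78 ± 0.067 on the log2 scale, 6.86-fold in favour of NCA3, and that of SIM1 to SUN4 by -0.39 ± 0.34, or -0.046 without treated replicate C.

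The CRH family joins chitin to glucan, and of its 3 genes UTR2 fell, CRR1 rose and CRH1 did not pass. UTR2 (also called CRH2), which acts at the bud neck of growing cells, had 721, 774 and 735 in treated cultures and 3022, 2934 and 3175 in controls. The treated arrays were all far below the controls, and UTR2 was 4.09-fold lower, with a log2 fold change of -2.03 ± 0.092 (adjusted p = 0.00013), the 22nd deepest fall among 5656 genes. CRH1 gave 1351, 1536 and 1600.2 in treated cultures and 1088, 1317 and 1207 in controls. The treated arrays were all above the controls, but CRH1 did not pass at 0.31 ± 0.12 (adjusted p = 0.085), and it turned to -0.14 with median centring. CRR1, which is known from spore wall formation, was dim in both groups, with 35.1, 52.6 and 47.3 in treated cultures, against 18.6, 26.4 and 19.7 in controls. It was higher without overlap, at 1.06 ± 0.21 (adjusted p = 0.01), and did not pass after quantile normalization, at 0.37 (adjusted p = 0.19), or median centring, at 0.61 (adjusted p = 0.061). The log2 ratio of CRH1 to UTR2 changed by 2.35 ± 0.11 and that of UTR2 to CRR1 by -3.09 ± 0.23.

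Gas proteins lengthen beta-1,3-glucan chains, and the 3 genes used in vegetative growth all fell. GAS3 gave 422, 488 and 512 in treated cultures and 1263, 1159.9 and 1328 in controls. GAS1, which encodes the major enzyme of the family, gave 4227, 4829 and 5228 in treated cultures and 10177, 9712 and 10389.9 in controls, and GAS5 gave 1091, 1385 and 1420.3 in treated cultures and 2224, 2342 and 2160.4 in controls. In all 3 genes every treated array was below every control. The log2 fold changes were -1.40 ± 0.12 (adjusted p = 0.00061) for GAS3, -1.09 ± 0.11 (adjusted p = 0.0012) for GAS1 and -0.80 ± 0.13 (adjusted p = 0.0055) for GAS5. GAS2 and GAS4, which are known from sporulation, were higher but dim. GAS2 had 71.1, 86 and 92.1 in treated cultures, against 34.7, 44.5 and 22.4 in controls, and GAS4 had 37.5, 40.5 and 43.2 in treated cultures, against 27.5, 21.8 and 27.8 in controls, both without overlap. Their log2 fold changes were 1.34 ± 0.27 (adjusted p = 0.011) for GAS2 and 0.66 ± 0.14 (adjusted p = 0.011) for GAS4. After quantile normalization GAS2 stood at 0.71 (adjusted p = 0.08) and GAS4 turned to -0.020 (adjusted p = 0.91).

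CRR1, GAS2 and GAS4 were the 3 members with all 6 signals under 100, at 18.6 to 52.6 for CRR1, 22.4 to 92.1 for GAS2 and 21.8 to 43.2 for GAS4. The 4 mouse control probe sets, which match no yeast transcript, ranged from 0.7 to 8.8 on the same arrays.

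The exo-beta-1,3-glucanases changed in opposite directions. EXG1, which encodes the major secreted enzyme, gave 1412, 1402 and 1659.8 in treated cultures, against 3797, 3840.0 and 3367 in controls. The treated arrays were all below the controls, with EXG1 2.46-fold lower, at -1.30 ± 0.12 (adjusted p = 0.00074) on the log2 scale. EXG2, the GPI-anchored form, gave 255, 254 and 209 in treated cultures and 182, 186 and 181 in controls. Its groups did not overlap, and it was higher at 0.38 ± 0.12 (adjusted p = 0.04), but it turned to -0.023 (adjusted p = 0.9) after quantile normalization and -0.071 (adjusted p = 0.67) after median centring. Its call was also lost when treated replicate A or B or any 1 of the control arrays was left out (adjusted p = 0.089 to 0.13). The log2 ratio of EXG1 to EXG2 changed by -1.68 ± 0.18. BGL2, an abundant glucan transferase of the wall, stood at -0.014 (adjusted p = 0.93), and turned to 0.25 with quantile normalization and 0.094 with reference gene centring. SCW4, a relative of BGL2, stood at -0.15 (adjusted p = 0.37), and turned to 0.13 with quantile normalization.

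**Figure D3:**
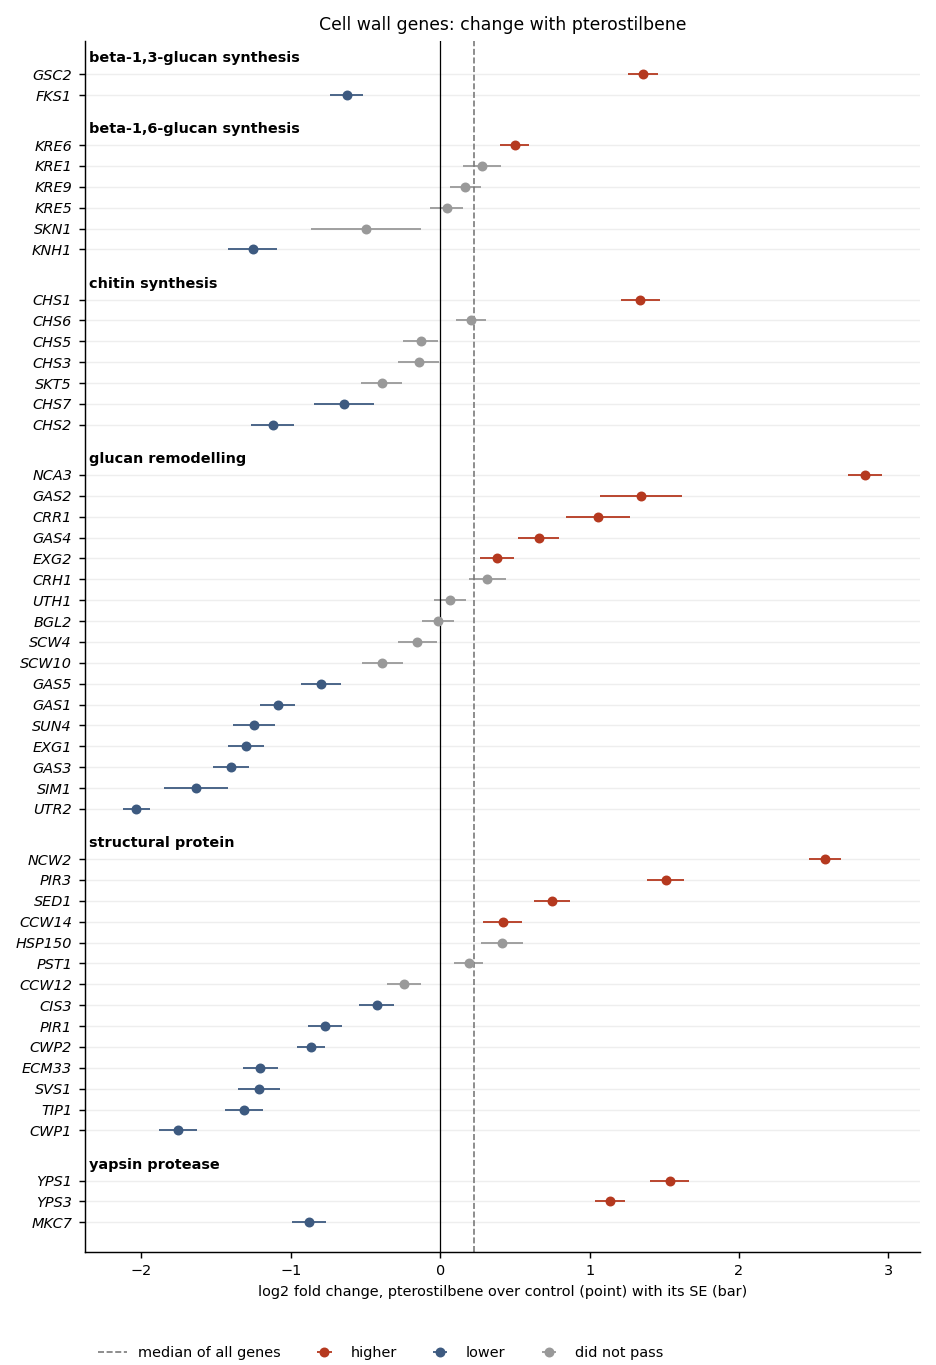
Log2 fold change, pterostilbene over control, of each cell wall gene (point) with its SE (bar), grouped by role, where colours mark genes that were higher, lower or did not pass at an adjusted p under 0.05. The dashed line is the median of all 5656 genes, 0.22. Each role holds both genes that were higher and genes that were lower.

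Of the 14 structural proteins, 4 were higher (28.6%), 7 lower (50%) and 3 did not pass, with a median log2 fold change of -0.33. Among all genes 35.8% were higher and 18.4% lower. None of the 14 had groups that overlapped, with 6 (42.9%) wholly above the controls and 8 (57.1%) wholly below, where 44.2% of all genes lay wholly above and 24.5% wholly below. NCW2, a GPI-anchored wall protein that is known to rise with wall damage, gave 5040.1, 4708 and 5534 in treated cultures, against 868, 812 and 880.4 in controls. The groups were far apart, with a 5.96-fold difference and a change of 2.58 ± 0.11 (adjusted p = 0.00011) on the log2 scale, the second largest rise among the members. CWP1 and CWP2 encode GPI-anchored mannoproteins of the wall of growing cells and lie next to each other on the chromosome. CWP1 gave 309, 278 and 364 in treated cultures and 1063, 1102 and 1026 in controls, and CWP2 gave 6248, 6229 and 6767 in treated cultures and 11367, 11656 and 12019 in controls. Both fell without overlap, CWP1 the more, at -1.76 ± 0.13 (adjusted p = 4e-04), and CWP2 at -0.87 ± 0.092 (adjusted p = 0.0012). The ratio of CWP1 to CWP2 changed by -0.89 ± 0.092 on the log2 scale, in the same direction on all treated arrays.

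TIP1, a GPI-anchored mannoprotein known for its rise in the cold, gave 1644, 1700.5 and 2090.2 in treated cultures and 4686, 4361 and 4405 in controls. It fell 2.49-fold without overlap, at -1.32 ± 0.13 (adjusted p = 0.00087) on the log2 scale. SVS1, a threonine-rich wall protein whose gene is transcribed in G1, gave 600.3, 694 and 798 in treated cultures and 1673, 1672 and 1478 in controls. Its groups did not overlap, and the log2 fold change was -1.21 ± 0.14 (adjusted p = 0.0015). ECM33, a GPI-anchored protein needed for polarized bud growth, gave 3566, 3840.3 and 4372 in treated cultures and 8649, 8948 and 9449 in controls. It was lower on every treated array, at -1.20 ± 0.11 (adjusted p = 0.00084). PST1, its relative and a known target of the cell wall integrity pathway, gave 616, 684 and 708 in treated cultures and 582, 588 and 588 in controls. The treated signals were all slightly above those of the controls, and PST1 stood at 0.19 ± 0.098 (adjusted p = 0.16), which turned to -0.26 with median centring. The log2 ratio of PST1 to ECM33 changed by 1.39 ± 0.052.

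The PIR proteins are held on beta-1,3-glucan by an alkali-sensitive bond. Of the 4 PIR genes among the members 1 was higher, 2 were lower and 1 did not pass, where 35.8% of all genes were higher and 18.4% lower. PIR3 was higher, with 124, 135 and 159.6 in treated cultures, against 46.8, 50.7 and 48.9 in controls. The groups were well apart, at 1.51 ± 0.13 (adjusted p = 0.00057) on the log2 scale. PIR1, the neighbour of PIR3 on the chromosome, gave 1974, 2045 and 2407 in treated cultures and 3678, 3582 and 3666 in controls, and fell without overlap at -0.77 ± 0.11 (adjusted p = 0.0032). The ratio of PIR1 to PIR3 changed by -2.28 ± 0.051 on the log2 scale, 4.85-fold in favour of PIR3. CIS3 gave 4822, 4949.8 and 5626 in treated cultures and 7176, 7296 and 6219.6 in controls. It was lower at -0.43 ± 0.12 (adjusted p = 0.031), without overlap, and did not pass after quantile normalization, at -0.13 (adjusted p = 0.41), after reference gene centring, at -0.32 (adjusted p = 0.071), or without replicate A or B of either group (adjusted p = 0.09 to 0.099). HSP150, next to CIS3 on the chromosome and known from heat shock, gave 9065, 9069 and 11259 in treated cultures and 7473, 7949.9 and 6579.5 in controls. The treated arrays were all above the controls, but HSP150 just missed the threshold at 0.41 ± 0.14 (adjusted p = 0.054). It passed after quantile normalization at 0.70 (adjusted p = 0.007), and turned to -0.038 (adjusted p = 0.82) with median centring. The ratio of HSP150 to CIS3 changed by 0.84 ± 0.042 on the log2 scale.

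Of the remaining structural genes, SED1, the main GPI-anchored protein of stationary phase walls, gave 9302, 9519 and 10126 in treated cultures, against 6497, 5682 and 5147 in controls. It was higher on every treated array, at 0.75 ± 0.12 (adjusted p = 0.0047), and did not pass with median centring, at 0.29 (adjusted p = 0.067). CCW14 was higher at 0.42 ± 0.13 (adjusted p = 0.043), without overlap, and turned to -0.033 (adjusted p = 0.84) with median centring. It lost its call when any 1 of the 6 arrays was left out (adjusted p = 0.055 to 0.13). CCW12, among the most abundant wall proteins of growing cells, stood at -0.24 ± 0.12 (adjusted p = 0.14), and at 0.024 (adjusted p = 0.84) after quantile normalization.

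Yapsins are GPI-anchored aspartyl proteases that act on wall and secreted proteins. Of the 3 members, 2 were higher and 1 lower, where 35.8% of all genes were higher and 18.4% lower. YPS1 gave 2472, 2874 and 3094 in treated cultures, against 1046, 975 and 881 in controls, a 2.9-fold difference. YPS3, its neighbour on the chromosome, gave 703, 708 and 802 in treated cultures, against 349, 333 and 324 in controls, a 2.2-fold difference. Both were above all controls on every treated array. MKC7, the closest relative of YPS1, gave 299.8, 339 and 362 in treated cultures and 651, 605 and 580.4 in controls, and was below all controls on every treated array. The log2 fold changes were 1.54 ± 0.13 (adjusted p = 6e-04) for YPS1, 1.14 ± 0.10 (adjusted p = 7e-04) for YPS3 and -0.88 ± 0.11 (adjusted p = 0.0023) for MKC7. The ratio of YPS1 to MKC7 changed by 2.42 ± 0.032 on the log2 scale, or 5.34-fold.

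In 6 of 19 pairs of related members, 1 gene was higher and the other lower: FKS1 and GSC2, UTR2 and CRR1, EXG1 and EXG2, CHS1 and CHS2, PIR1 and PIR3, and YPS1 and MKC7. The calls of CRR1 and EXG2 were lost after quantile normalization, so that 4 of these pairs kept opposite calls there. In 2 pairs, GAS2 with GAS4 and YPS1 with YPS3, both genes were higher, and in 4, GAS1 with GAS3, GAS1 with GAS5, SIM1 with SUN4 and CWP1 with CWP2, both were lower. The change in the ratio of the pair reached the smallest possible exact permutation p of 0.1 in 17 of the 19 pairs (0.112 after Benjamini-Hochberg adjustment over the 19). The exceptions were GAS2 with GAS4, at an exact p of 0.2, and SCW4 with SCW10, at an exact p of 0.4. With arrays left out 1 at a time, the change in ratio of GAS2 to GAS4 went to 0.35 without control replicate C, against 0.68 with all arrays, and that of SCW4 to SCW10 to 0.045 without treated replicate A and 0.40 without treated replicate C, against 0.23. The pairs share genes and arrays, so they are not independent, and 4 of the 19 are neighbours on a chromosome.

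**Figure D4:**
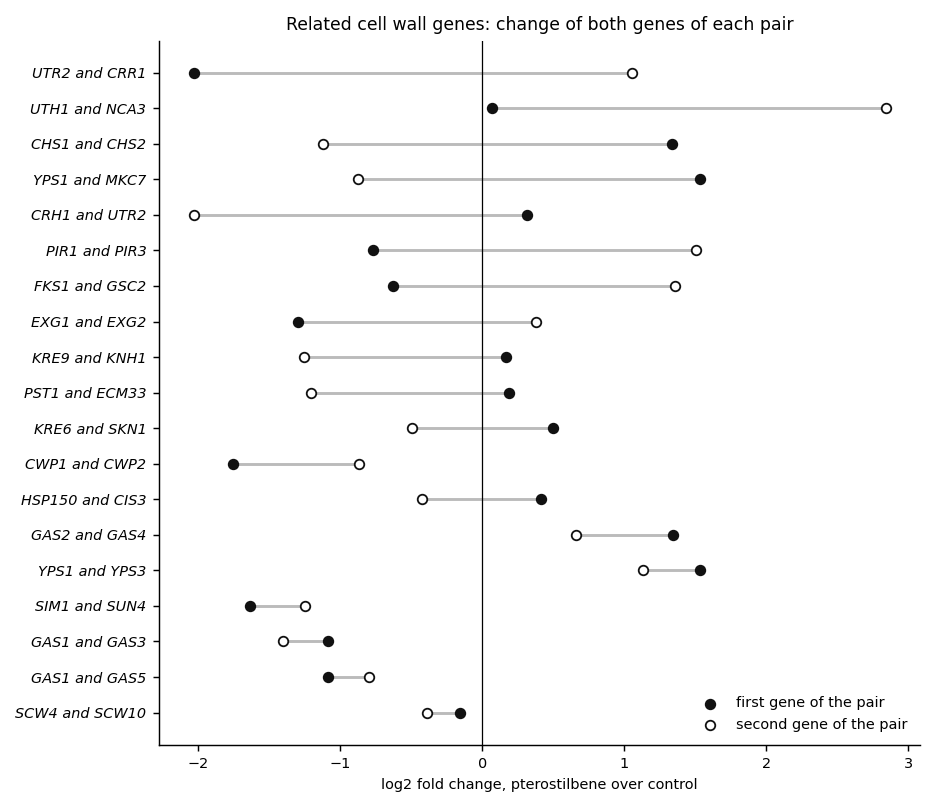
Log2 fold change, pterostilbene over control, of both genes in each of 19 pairs of related cell wall genes, with the first-named gene filled and the second open, ordered by the distance between them. UTR2 and CRR1 lie furthest apart, at -2.03 and 1.06, and SCW4 and SCW10 closest, at -0.15 and -0.39.

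The treated arrays differed in level. Replicate C of the treated group had the highest of the 3 treated signals for 38 of 49 members (77.6%, against 60.3% of all genes) and replicate A the lowest for 35 (71.4%, against 47.2% of all genes). SKN1 and SIM1 went the other way, with both other treated arrays more than 1.5-fold above replicate C, as did 4.01% of all genes.

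After quantile normalization CRR1, GAS2, GAS4, EXG2 and CIS3 lost their calls, HSP150, UTH1 and SKT5 gained one, and the calls of the other 41 members were as deposited. Across the 16 other settings tried, 24 of the 33 called members kept their direction and their call in all of them. They are GSC2, CHS1, NCA3, PIR3, NCW2, YPS1 and YPS3 among the higher genes, and FKS1, KNH1, CHS2, UTR2, GAS1, GAS3, GAS5, EXG1, SIM1, SUN4, CWP1, CWP2, TIP1, PIR1, ECM33, SVS1 and MKC7 among the lower.

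**Figure D5:**
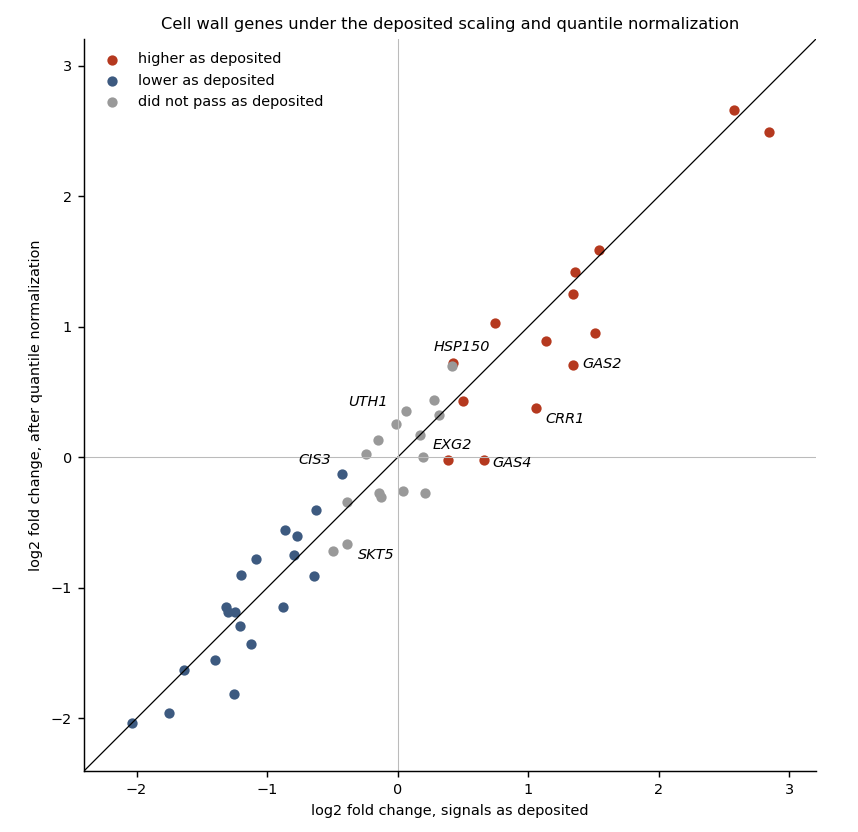
Log2 fold change, pterostilbene over control, of each cell wall gene with the signals as deposited (horizontal axis) and after quantile normalization (vertical axis), with the line of equality. Named genes are those whose call differs between the scalings: CRR1, GAS2, GAS4, EXG2 and CIS3 passed only as deposited, and HSP150, UTH1 and SKT5 only after quantile normalization.

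Genes that act on the wall from outside this set gave context. Of 12 genes of the cell wall integrity kinase pathway and its transcription factors, 5 were higher, 0 lower and 7 did not pass, with a median log2 fold change of 0.40. The higher genes are 41.7% of the list, where 35.8% of all genes were higher and 18.4% lower. Quantile normalization gave 2 higher and 2 lower, where 21.6% of all genes were higher and 30.4% lower. Median centring gave 1 higher and 2 lower, where 19.3% of all genes were higher and 39% lower. RLM1, the transcription factor of the pathway, gave 1073, 1123 and 1352 in treated cultures, against 369.7, 365 and 307 in controls. All treated arrays were far above the controls, at 1.77 ± 0.14 (adjusted p = 0.00049), while SLT2, the kinase, stood at 0.61 ± 0.13 (adjusted p = 0.012). SLT2 stood at 0.41 (adjusted p = 0.047) after quantile normalization. It did not pass with median centring, at 0.16 (adjusted p = 0.36). Of 15 genes known to rise when that kinase is active, 8 were higher (53.3%), 2 lower (13.3%) and 5 did not pass. Quantile normalization gave 9 higher (60%) against 1 lower (6.67%), and median centring 5 (33.3%) against 2 (13.3%), beside the same shares of all genes in each scaling. Of these 15, 11 are members, so the list is no separate evidence, and the 2 that were lower, CWP1 and CIS3, are among them. PUN1, a plasma membrane protein on this list and not a member, was higher at 1.17 ± 0.11 (adjusted p = 0.00087).

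Other chitin genes, for precursors, transport and modification, gave 2 higher (14.3%), 2 lower (14.3%) and 10 that did not pass, of 14. Quantile normalization gave 3 higher and 6 lower, and median centring 2 higher and 8 lower. Beside them, all genes were 35.8% higher and 18.4% lower as deposited. Quantile normalization made that 21.6% and 30.4%, and median centring 19.3% and 39%. RCR1, known for lowering chitin deposition when overproduced, gave 953, 869 and 1174 in treated cultures, against 184, 188 and 214 in controls, and was higher at 2.35 ± 0.15 (adjusted p = 0.00026). BUD7, an exomer subunit related to CHS6, gave 1008, 919.6 and 1224 in treated cultures, against 293, 298 and 294 in controls, and was higher at 1.82 ± 0.13 (adjusted p = 0.00038). Both stood far above the controls on every treated array, and the other exomer gene on the list that passed, BCH1, was lower at -0.36 ± 0.097 (adjusted p = 0.029). BCH1 did not pass with reference gene centring, at -0.25 (adjusted p = 0.061). QRI1, which makes the sugar nucleotide from which chitin is built, was lower at -0.58 ± 0.13 (adjusted p = 0.016).

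Other glucan genes gave 2 higher (12.5%), 3 lower (18.8%) and 11 that did not pass, of 16. After quantile normalization 1 was higher and 6 lower, and after median centring 0 were higher and 7 lower, beside the same shares of all genes. ROT2, a glucosidase of the endoplasmic reticulum that trims glycoproteins, was lower at -0.96 ± 0.12 (adjusted p = 0.0021), and DSE2, a daughter-specific protein of cell separation, at -0.85 ± 0.19 (adjusted p = 0.014). HKR1, an osmosensor of the cell surface, was higher at 0.84 ± 0.13 (adjusted p = 0.0038), and CNE1, the calnexin of yeast, lower at -0.55 ± 0.13 (adjusted p = 0.017). HKR1 did not pass with median centring, at 0.38 (adjusted p = 0.063). Of 23 other wall proteins measured, 5 were higher (21.7%), 2 lower (8.7%) and 16 did not pass, where 35.8% of all genes were higher and 18.4% lower. Quantile normalization gave 4 higher (17.4%) and 6 lower (26.1%), and median centring 3 higher (13%) and 10 lower (43.5%). The balance of all genes turned in the same way, to 21.6% higher and 30.4% lower by quantile normalization and 19.3% and 39% by median centring. SPI1, a GPI-anchored protein known to rise under stress, gave 3262, 2129 and 3460.2 in treated cultures, against 682, 611 and 901 in controls, and was higher without overlap (adjusted p = 0.0019, with a log2 fold change of 2.03 after quantile normalization). Another yapsin, YPS6, was higher at 1.31 ± 0.19 (adjusted p = 0.0033). The yapsins YPS5 and YPS7 did not pass, at 0.30 (adjusted p = 0.068) and 0.084 (adjusted p = 0.48). Quantile normalization turned YPS5 to -0.39 and YPS7 to -0.20, and median centring turned them to -0.15 and -0.37. EGT2, a G1 gene of cell separation, was lower at -0.82 ± 0.15 (adjusted p = 0.007). FLO1, whose flocculin relatives share much of its sequence, so that its signal is uncertain, gave 74.9, 65.8 and 70.3 in treated cultures and 21.1, 6.4 and 16.2 in controls. It was higher (adjusted p = 0.0074). Its lowest control signal lay within the range of the mouse control probe sets, 0.7 to 8.8, so no fold is given. The strain carries flo1, and the part of that in this signal was not tested.

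Of 9 other regulators measured, 4 were higher (44.4%), 1 lower (11.1%) and 4 did not pass, where 35.8% of all genes were higher and 18.4% lower. Both quantile normalization and median centring gave 3 higher and 2 lower. Of all genes, 21.6% were higher and 30.4% lower by quantile normalization, and 19.3% and 39% by median centring. BAG7, which encodes a GTPase-activating protein for Rho1p, gave 291, 313 and 356 in treated cultures, against 3.4, 2.1 and 1.9 in controls, and was higher (adjusted p = 9.9e-05). Its control signals lay within the range of the mouse control probe sets, so no fold is given. LRE1, which acts on wall stability, was higher at 1.25 ± 0.10 (adjusted p = 0.00055), and CRZ1, the transcription factor through which calcineurin acts on genes such as GSC2, at 1.02 ± 0.14 (adjusted p = 0.003). SWI5, a transcription factor of late mitosis, was lower at -0.92 ± 0.17 (adjusted p = 0.0068), and belongs to the CLB2 cluster as well.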

How the data were processed

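Total RNA of 6 cultures was hybridized to 6 arrays, 3 per group. The authors deposited linear intensity values, 1 signal per probe set, from Affymetrix software, for which the submitters' processing notes name GCOS 1.1. The summarisation method and scaling target are not given in the sources used here. All 6 value columns were used, and 0 were left unused. Detection calls were not used here. Signals were taken to log2, with the 23 zeros raised to the smallest positive signal, 0.1. After 60 control probe sets were removed, 9275 were tested. Of these 6504 had 1 gene in the platform annotation, 328 had several and 2443 had none, and the last 2 kinds entered the fit but no count of genes. Symbols came from the RefSeq table, which held all 49 members. No genome or sequence was used.

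Treated and control arrays were compared by limma 3.58.1 (lmFit and eBayes, R 4.3.3), which was tested on simulated data, and p-values of the 9275 probe sets were adjusted together by Benjamini-Hochberg, with a threshold of 0.05. Cultures were independent by the study's methods, with 3 per group, and the number of arrays limits the precision. The methods also describe an overnight culture from a single colony as the inoculum. If all cultures came from it, the spread within groups does not include differences between colonies. Within groups the log2 signal of the median probe set had an SD of 0.19 with pterostilbene and 0.17 in the controls. Ratios of related genes were compared by an exact permutation test over arrays. Members and lists were chosen with earlier results of these data known. Any member could be named. All signals are given, in each role, for up to 6 members with the largest changes, for their relatives, and for CHS2, TIP1, CWP1 and EXG1. Up to 4 genes that passed are named from each list, and YPS5 and YPS7, which did not pass, are named in addition. Signals of CHS3, CIS3, HSP150, SED1 and SCW10 were added after their values were seen.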

Additional observations from a re-analysis of the deposited data

Results flagged for a closer look

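One signal outside the measurement of yeast genes differed between the groups. The poly-A control transcripts (dap, lys, phe and thr of *Bacillus subtilis*), which are added to RNA before labelling, were 5.11-fold higher on the arrays of pterostilbene-treated cultures over 12 probe sets. Their mean signal was 356, 307 and 408 in treated cultures, against 76.0, 86.2 and 62.9 in controls. With the 3 probe sets of trp, which lay between 0.5 and 4.9 on all arrays, the difference was 3.79-fold. The hybridization controls, which are added after labelling, differed 1.06-fold over 9 probe sets. The amounts added are not given in the sources used here, so no scaling was made on the poly-A controls, and their part in the changes of the cell wall genes was not tested.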

How the results depend on the processing

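Of the 33 members called, 24 kept direction and call in all 16 other settings run: 3 scalings, a pseudocount of 8.6, a floor of 22.6, the dimmest 25% of probe sets left out, trend and robust moderation, the methods' t-test, the replicate block, probe sets averaged, and each of the 6 arrays left out. The dim filter left out CRR1 and GAS4, which have no value there. CCW14, CHS7, CIS3 and EXG2 lost their call with 4 or more of the 6 arrays left out 1 at a time and with the block, and the cause was not tested. With median centring 8 members were higher, against 14 as deposited, and directions turned for CCW14 (-0.033), CHS6 (-0.25), CRH1 (-0.14), EXG2 (-0.071), HSP150 (-0.038), KRE1 (-0.17), KRE5 (-0.41), KRE9 (-0.28), PST1 (-0.26) and UTH1 (-0.39). With quantile normalization they turned for BGL2 (0.25), CCW12 (0.024), CHS6 (-0.27), EXG2 (-0.023), GAS4 (-0.020), KRE5 (-0.26) and SCW4 (0.13), with reference gene centring for BGL2 (0.094), and with probe sets averaged for SCW10 (0.36). Median and reference gene centring shift all genes of an array alike by construction. Quantile normalization shifts a gene by an amount that depends on its signal. By it the bright UTH1 went from 0.066 to 0.35, and the dim GAS4 from 0.66 to -0.020. With 1 array left out, BGL2 ranged from -0.054 to 0.064 and KRE5 from -0.025 to 0.10, and the counts of members from 12 to 13 higher and from 17 to 19 lower. Same-lettered arrays did not deviate together (correlations of -0.036 to -0.0099), so that the letters give no pairing. With the letter as a replicate block, 12 members were higher and 17 lower, and over all genes 1589 were higher and 702 lower, against 2025 and 1041 without it. Signals near the background limit CRR1, GAS2 and GAS4.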
